A study of Mus musculus with 2 samples.

Results

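Intergenic transcript loci were the places in the mouse genome where long-read RNA sequencing of calf muscle gave transcripts outside annotated genes. Members were the transcript models whose gene was classed as intergenic in the deposited tables, 1918 of 85723 models in replicate 1 and 1619 of 86916 in replicate 2. Models whose spans shared at least 1 base on the same strand were merged over both libraries, which turned these 3537 models into 2808 loci. They held 4189 reads (0.278% of the library, exact 95% Clopper-Pearson interval 0.269% to 0.286%) in replicate 1 and 3676 reads (0.313%, interval 0.303% to 0.324%) in replicate 2. The mean share was 0.295% ± 0.0253 (SD, n = 2).

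The study used long-read RNA sequencing on the gastrocnemius, the large superficial muscle of the calf, of male B6CASTF1/J mice (B6Cast F1 in the labels, a first-generation cross of C57BL/6J with the wild-derived strain CAST/EiJ) aged 18 to 20 months. There was 1 group of 2 libraries, biological replicates 1 and 2 by their labels, with 2 µg total RNA as input and both SIRV and ERCC controls added, and no treatment or second genotype. The libraries come from separate biosamples under the same donor entry, and whether each holds 1 mouse or pooled tissue is not given in the sources used here. Totals were 1509380 reads in replicate 1 and 1173233 in replicate 2, and ERCC spike-ins took 2.74% and 0.595% of them. The 7 skeletal muscle markers all had reads in both libraries and summed to 146393 and 131607 CPM (reads per 1000000 reads of the library). The lists for fibroblasts, blood, adipocytes, endothelium, immune and Schwann cells summed to between 13.6 and 655 CPM, and each of their markers was in both libraries except for immune cells, where 1 of 3 was.

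A transcript is called intergenic when it lies outside the genes of the annotation in use, so the class depends on that annotation as much as on the tissue. It is known to collect several kinds of RNA: long non-coding RNAs (lncRNAs) that no catalogue lists yet, transcripts that read past the end of a gene, divergent transcripts that leave a promoter in the other direction, host transcripts of microRNAs, and reads placed on processed pseudogenes, which are copies of messenger RNAs pasted back into the genome. Splicing is the usual sign of a mature transcript. A single-exon model carries no splice site that would fix its strand or its origin.

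The sequences beside some of the members described below show what kinds of place these were. Windows from 250 bases before to 50 bases after a RefSeq gene start (RefSeq on GRCm38.p6, the assembly also called mm10) were searched for the 5′ ends of the models. Such a start was found in 51 loci, and 42 of these (82.4%) were spliced. The median distance between the model's 5′ end and the RefSeq start was 34 bases. The 4 windows of loci described below are printed 5′ to 3′, chosen because RefSeq starts a lncRNA there where GENCODE M21, the annotation behind the files, has no gene on that strand. Capitals run from the 5′ end of the most-read model that starts in the window to the window's end, introns included.
Gm38768, chr6:14608201-14608500, plus strand: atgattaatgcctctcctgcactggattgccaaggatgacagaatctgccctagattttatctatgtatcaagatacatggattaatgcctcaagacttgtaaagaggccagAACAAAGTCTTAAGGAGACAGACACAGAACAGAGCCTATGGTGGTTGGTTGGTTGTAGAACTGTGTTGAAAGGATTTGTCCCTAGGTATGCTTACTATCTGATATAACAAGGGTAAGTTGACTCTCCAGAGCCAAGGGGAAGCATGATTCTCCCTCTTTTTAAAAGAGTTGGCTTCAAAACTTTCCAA
Gm38882, chr6:117879383-117879682, plus strand: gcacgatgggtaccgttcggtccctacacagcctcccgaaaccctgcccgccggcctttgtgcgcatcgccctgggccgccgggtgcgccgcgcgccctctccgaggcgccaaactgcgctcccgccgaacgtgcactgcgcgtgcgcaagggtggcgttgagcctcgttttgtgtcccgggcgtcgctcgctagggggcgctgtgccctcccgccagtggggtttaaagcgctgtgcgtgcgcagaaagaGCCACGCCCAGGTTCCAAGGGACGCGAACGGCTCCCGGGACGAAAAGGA
Gm51633, chr1:72936614-72936913, plus strand: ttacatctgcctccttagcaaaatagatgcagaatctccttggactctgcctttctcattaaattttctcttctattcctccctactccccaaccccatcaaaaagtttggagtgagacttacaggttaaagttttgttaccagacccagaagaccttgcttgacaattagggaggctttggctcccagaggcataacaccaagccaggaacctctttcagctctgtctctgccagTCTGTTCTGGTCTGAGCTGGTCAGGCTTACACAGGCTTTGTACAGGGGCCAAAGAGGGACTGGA
Gm33317, chr13:83503852-83504151, minus strand: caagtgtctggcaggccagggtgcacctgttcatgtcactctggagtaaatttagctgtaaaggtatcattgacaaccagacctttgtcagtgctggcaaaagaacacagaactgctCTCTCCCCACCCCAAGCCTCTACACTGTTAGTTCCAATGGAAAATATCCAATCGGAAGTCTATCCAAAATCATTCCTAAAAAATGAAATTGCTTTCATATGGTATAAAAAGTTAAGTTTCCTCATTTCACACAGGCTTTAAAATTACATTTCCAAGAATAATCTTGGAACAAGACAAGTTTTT
The model began 138 bases before the RefSeq start at Gm38768, 1 base after it at Gm38882, 14 bases before it at Gm51633 and 133 bases before it at Gm33317. The motif TATAAA, on either strand, was in 7.84% of the 51 windows and in 13.6% of all 32851 windows of the table, and CAGCTG, a palindromic E-box, was in 13.7% and 16.3%. Neither match marks a site that was tested.

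The most-read members had another kind of neighbour. GENCODE lists the processed pseudogenes Gm12033, Gm12671 and Amd-ps4, all on the minus strand, and a locus met each of them end to end. The last 60 bases of Gm12033 and Gm12671 and the opening 60 bases of Amd-ps4 are printed because the loci start or stop there. Capitals mark the stop codon or the start codon of the coding transcript that matches each.
Gm12033, chr11:20335012-20335071: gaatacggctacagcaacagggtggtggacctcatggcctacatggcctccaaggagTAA
Gm12671, chr4:91851668-91851727: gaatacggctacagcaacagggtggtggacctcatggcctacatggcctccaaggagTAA
Amd-ps4, chr4:51253968-51254027: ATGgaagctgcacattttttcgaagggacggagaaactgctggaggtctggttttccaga
The printed ends of Gm12033 and Gm12671 are the same, and over their whole length 1001 of 1002 aligned bases were identical. Both matched the coding part of Gapdh, the glycolytic enzyme glyceraldehyde-3-phosphate dehydrogenase, from the start to the stop codon, with 99.9% identity for Gm12033 and 100% for Gm12671. Amd-ps4 matched the coding part of Amd2, a gene for the polyamine enzyme S-adenosylmethionine decarboxylase, with 99.5% identity.

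Reads were spread thinly over the 2808 loci. A single read made up 1948 of them (69.4%), 91 had at least 10 reads over both libraries, and the 12 most read held 22.6% of all intergenic reads. Replicate 1 had reads on 1785 loci and replicate 2 on 1503. Reads from both libraries were found on 480 loci, 26.9% of those of replicate 1 and 31.9% of those of replicate 2, and these carried 53.1% and 50.6% of the intergenic reads. A count of 0 allows up to 3 reads, which is 1.99 CPM in replicate 1 and 2.56 CPM in replicate 2, so a locus seen in only 1 library was not shown to be absent from the other. Intervals and floors cover counting error only.

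Spliced loci, those with at least 1 model of 2 or more exons, numbered 327 (11.6%) and single-exon loci 2481 (88.4%). Of the spliced loci, 97 (29.7%) had reads in both libraries, against 383 (15.4%) of the single-exon loci. Single-read loci, which cannot recur, were 49.5% of the spliced and 72.0% of the single-exon ones. Among loci with 2 to 4 reads, 47 of 107 spliced and 247 of 517 single-exon loci were in both libraries, so the shares were 43.9% and 47.8%. With 5 to 9 reads they were 79.4% and 74.8%. With 20 or more reads all 10 spliced loci were in both, and 26 of 34 single-exon ones. Exon numbers were low: 194 spliced loci had 2 exons in their longest chain, 73 had 3, 34 had 4 and 26 had 5 or more, with 11 as the highest. The 941 introns had a median length of 1924 bases, and 5 of them were shorter than 50 bases.

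Recurrence went down to the splice site in part of them. Of the 59 loci with a spliced model in each library, 37 (62.7%) held at least 1 identical chain of introns in both. In all 480 shared loci the most-read models of the 2 libraries ended within 20 bases of each other at the 3′ end in 388 cases (80.8%) and at the 5′ end in 254 (52.9%). The median difference was 1 base at the 3′ end and 7 bases at the 5′ end, and in the 97 spliced loci it was 2 and 59 bases. The 3′ ends thus lay closer together than the 5′ ends.

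The locus chr6:14608313-14621890 on the plus strand, which RefSeq calls the lncRNA Gm38768, was read 21 times in replicate 1 and 7 times in replicate 2, and 26 of these reads were spliced. Its most-read model had 3 exons, 520 bases and 11 reads in replicate 1, and replicate 2 held the same introns in a model of 496 bases with 4 reads. Another chain with an extra exon was also found in both libraries with 1 read each. The nearest annotated gene, the processed pseudogene Gm44446 at 37287 bases, had no reads. The counts did not differ beyond the threshold (Fisher's exact test, Benjamini-Hochberg adjusted p = 0.171).

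The plus-strand locus chr1:72936850-72952742, on the RefSeq lncRNAs Gm31047 and Gm51633, had 11 and 7 reads. Its models ran to 8 exons, and 4 intron chains were the same in both libraries. Each of these chains used 1 of 2 alternative exons before the last exon, and both alternatives were found in each library. All 11 models ended at the same base, 72952742. The nearest annotated gene was the antisense lncRNA 1700027A15Rik, 32101 bases away and without reads.

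Among the members with most exons, a pair lay opposite the starts of Mef2c and Mbnl1. The minus-strand locus chr13:83261089-83504034 had 2 and 6 reads, up to 11 exons, and met the 5′ end of Mef2c, a transcription factor of muscle, heart and nerve cells, on the other strand, sharing 1 base with it. RefSeq lists the lncRNAs Gm33217 and Gm33317 along it. Mef2c itself had 328 and 513 reads. The minus-strand locus chr3:60292544-60474878 rested on 0 and 2 reads. In 1 of these it reached 10 exons, with its first exon and the start of its first intron within Mbnl1, the splicing regulator sequestered in myotonic dystrophy, on the opposite strand. RefSeq lists Gm33650 there.

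At chr6:117879634-117884593, 6342 bases past the zinc finger gene Zfp239, 14 and 8 reads were spliced in up to 4 exons, and 3 intron chains were shared. RefSeq names it Gm38882. The locus chr3:137557384-137564413 had 18 and 5 reads, and 16 and 5 of them came from 2-exon models with the same intron. The locus chrY:37763150-37767469 had 20 and 7 reads, 7 of them with a gap that counts as an intron and is 1 of the 5 shorter than 50 bases. The remaining members with most exons, chr2:159635485-159756401 with 7 exons and chr16:94060335-94071286 with 8, rested on 2 and 1 and on 1 and 0 reads. None of these counts differed between the libraries beyond the threshold where there were enough reads to test.

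**Figure D1:**
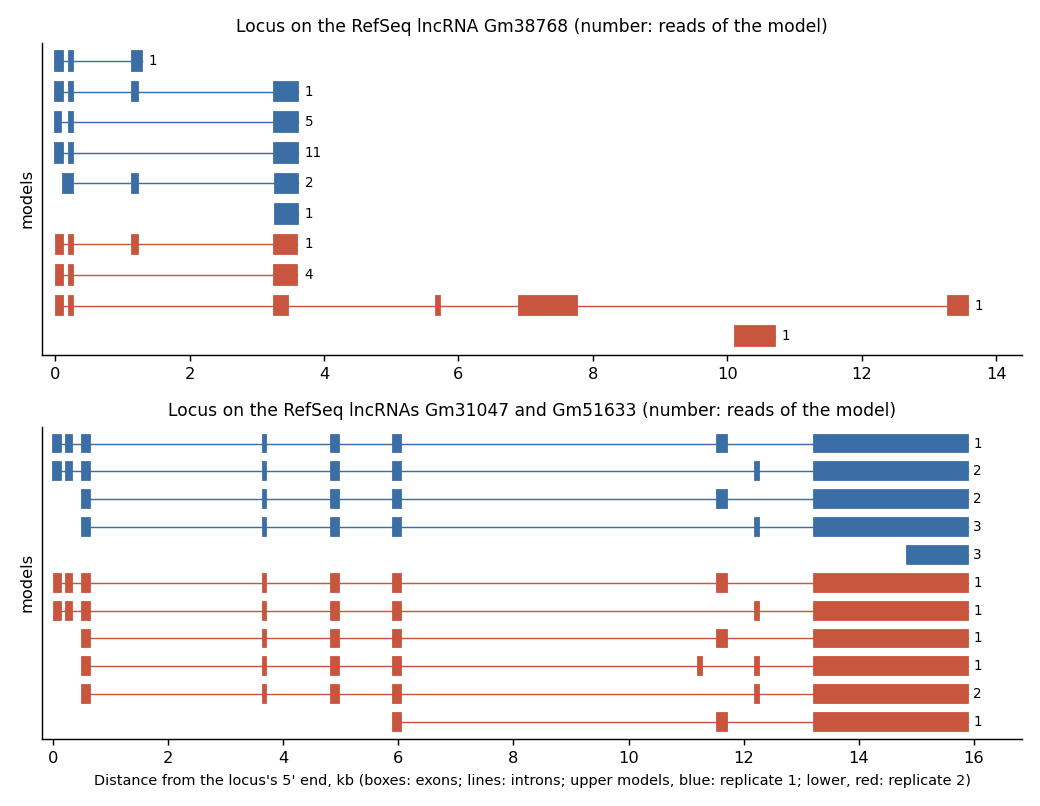
Transcript models of 2 spliced intergenic loci, drawn to scale from the 5′ end of the locus in kilobases; boxes are exons, lines are introns, blue models come from replicate 1 and red from replicate 2, and the number is the reads of the model. The upper locus (Gm38768) shares 2 intron chains between the libraries and the lower locus (Gm31047 and Gm51633) shares 4.

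Position relative to annotated genes was taken from the GENCODE M21 release. The median distance of a locus to the nearest gene on either strand was 2773.5 bases (quartiles 655 and 9582 bases). Within 5 kb lay 61.6% of the loci, and 115 (4.10%) lay farther than 50 kb, the farthest at 295294 bases. Spliced loci lay farther out, with a median of 5522 bases against 2614 for single-exon loci. They also spanned more of the genome, introns included, with a median span of 5065 bases against 480. Over these unequal spans, 30.9% of the spliced loci overlapped a RefSeq gene on the same strand against 9.63% of single-exon loci. Such RefSeq genes overlapped 340 loci, of lncRNA type in 175 and protein-coding in 165. Another 299 loci overlapped only RefSeq genes whose strand the table does not give.

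**Figure D2:**
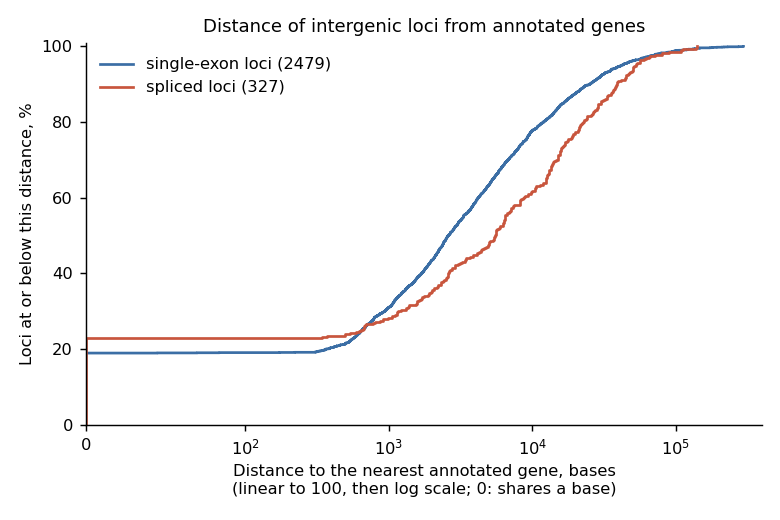
Share of loci (vertical axis, %) at or below each distance to the nearest annotated gene (horizontal axis in bases, linear to 100 and then logarithmic), for single-exon loci in blue and spliced loci in red. Both curves start at the loci that share a base with a gene (18.9% of single-exon and 22.9% of spliced loci), stay nearly flat to 300 bases, and the spliced curve then runs to the right of the single-exon curve.

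Distances were not smooth near genes. A base was shared with an annotated gene by 544 loci, and in 528 of these it was exactly 1 base, at which their ends met. Only 5 loci lay 1 to 300 bases away, while 310 lay more than 300 and up to 1000 bases away, and no locus lay inside a gene. In 213 of the 528 the 5′ end of the locus met the 5′ end of a gene on the other strand, in 201 the 5′ end of the locus met the 3′ end of a gene on the same strand, in 79 the 3′ ends met from opposite strands, and in 35 the 3′ end of the locus met the 5′ end of a gene on the same strand. How the deposited models came to end on annotated bases was not tested. The 528 loci held 2244 reads, and 392 of the genes they met were protein-coding and 77 were processed pseudogenes.

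The most-read locus with reads in both libraries was such a meeting. The single-exon locus chr7:28187294-28189071 on the minus strand was read 140 and 145 times in replicates 1 and 2. Its 3′ end met the 3′ end of Dyrk1b, a kinase gene of muscle differentiation on the plus strand, at base 28187294. Dyrk1b itself had 49 and 52 reads, fewer than its neighbour in each library. The locus did not pass the test (log2 ratio of replicate 2 over replicate 1 of 0.41 on the log2(CPM + 1) scale, adjusted p = 0.0695).

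Past the 3′ end of annotated genes, on their strand and within 5 kb, lay 389 loci with 1085 reads, not counting the 201 that met a 3′ end there and shared its last base. Their neighbours, 377 different genes, were protein-coding for 292 of the loci. For 293 of the loci (75.3%) the neighbour had reads of its own. Among all 55536 annotated genes, of any type, 26.8% had reads. These shares cannot be compared directly, because the neighbours were mostly protein-coding. Whether they had reads more often than other protein-coding genes was not tested. The 5 most read of the 389 lay past Gm8116, Mir133a-2, Eef1a2, Hipk2 and Srl. The minus-strand locus chr2:181141336-181146894, 758 bases past Eef1a2, the translation elongation factor isoform of mature muscle and neurons, had 30 and 24 reads beside 344 and 318 for Eef1a2. The RefSeq span of Eef1a2 itself overlaps this locus. The locus chr16:4476263-4478989, 1226 bases past Srl, which encodes the calcium-binding sarcoplasmic reticulum protein sarcalumenin, had 8 and 17 reads. Another 2305 and 2363 reads over the same place carried the label Srl, so the intergenic label held a small part of the reads there. Past Hipk2, a nuclear kinase, chr6:38687514-38692193 had 27 and 10 reads beside 21 and 9 of Hipk2, and the RefSeq span of Hipk2 again overlaps it.

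A locus that overlaps the host gene of muscle microRNAs was among them. The plus-strand locus chr2:180401173-180406616, with 41 and 27 reads, began 2690 bases past Mir133a-2 (chr2:180398379-180398482). It overlaps the RefSeq lncRNA Mir1a-1hg, the host of miR-1 and miR-133, the main microRNAs of striated muscle. Reads labelled Mir133a-2 numbered 25 and 26. Of these, 4 in replicate 1 and 9 in replicate 2 were spliced and ended within 20 bases of the 3′ end of the locus. The 2 labels thus shared a 3′ end, and the counts of the locus did not differ between the libraries beyond the threshold (adjusted p = 0.761).

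Far from genes the loci were small in reads. The most read beyond 50 kb was chr4:153604029-153606490, 121217 bases from Ajap1, with 26 and 6 reads and called lower in replicate 2 (log2 ratio -1.58, Fisher's exact test, adjusted p = 0.0228), a call that was lost when no read minimum was set (adjusted p = 0.0667). Next came chr1:14664665-14664854 (19 and 10 reads, 88082 bases from Gm9947) and chr16:37440725-37451724 (4 and 9 reads, all spliced, 55762 bases from Stxbp5l). The others, chr18:89835792-89835942 with 4 and 2 reads and chrX:11393408-11418414 with 0 and 6, were under the minimum of 10 reads.

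Many single-exon members had nearly the same length. Models of 170 to 180 nucleotides were 18.2% of 1644 single-exon intergenic models in replicate 1 and 12.3% of 1383 in replicate 2. Among single-exon antisense models the same lengths took 3.24% and 1.61%, and among single-exon genomic models of annotated genes 2.51% and 1.95%. A rise at these lengths was thus also present in the other classes, as 197 and 132 antisense models beside 300 and 170 intergenic ones, but they were a smaller share there. The most frequent length was 177 nucleotides, with 82 models. No repeat annotation or genome sequence was used, so what these models share in sequence was not tested.

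**Figure D3:**
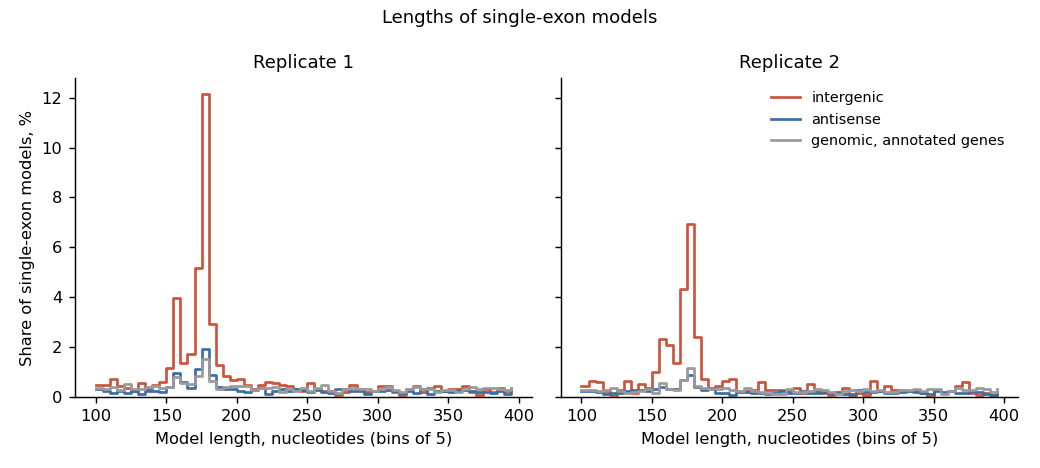
Share of single-exon models (vertical axis, %) in bins of 5 nucleotides of model length (horizontal axis), for intergenic models in red, antisense models in blue and genomic models of annotated genes in grey, in replicate 1 (left) and replicate 2 (right). In both libraries the intergenic curve has a narrow peak at 170 to 180 nucleotides, where the other curves have only a small rise.

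The peak at 170 to 180 nucleotides was spread over the genome. Single-exon loci were counted in it by the length of their most-read model over both libraries. It covered 394 loci on 22 sequences of the assembly, scaffolds counted like chromosomes, and 278 of the loci had a single read. All reads of these loci, 674 in replicate 1 and 651 in replicate 2, were less evenly spread. The loci at the ends of the Gapdh-like pseudogenes Gm12671 and Gm12033 alone held 176 of the former and 393 of the latter. Without them 392 loci held 498 and 258 reads. Counted by model and not by locus, single-exon intergenic models of 170 to 180 nucleotides held 663 and 760 reads. The median distance of all 394 loci from a gene was 5557 bases, against 2198 bases for the other 2087 single-exon loci. Of the 394, 17.5% were in both libraries against 15.0%. Only 3 of the 394 shared a base with a gene, and all 3 of those genes were processed pseudogenes. Among the most-read loci were also short ones whose most-read model lay outside this range, though their replicate 2 models lay within it. The locus chr15:103619061-103619240 had 67 reads on a model of 111 nucleotides in replicate 1 and 62 on a model of 180 in replicate 2. The locus chr9:78818588-78818757, 1880 bases past the pseudogene Gm8116, had 72 reads on a model of 168 nucleotides and 45 on a model of 170. Neither differed between the libraries beyond the threshold (Fisher's exact test, adjusted p = 0.569 and 0.492).

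The loci that met processed pseudogenes end to end were compared with the messenger RNAs that those pseudogenes resemble. Of the 77, 54 began at the 3′ end of the pseudogene, 7 stopped at its 5′ end and 16 lay on the other strand. For each pseudogene the coding transcript sharing most 25-base words was aligned to it. In 55 same-strand single-exon loci the alignment covered at least 80% of the pseudogene with at least 90% identity. In 30 of these 55 the length of the locus was within 20 bases of what the coding transcript has beyond the matched part. The 30 include 10 loci at copies of the single gene Gapdh, which are described below. Copies this close can share reads, so counts at these pseudogenes and loci are uncertain, and how reads were placed among them was not tested.

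Beside Gm12033 the locus chr11:20334833-20335012 had 0 reads in replicate 1 and 393 in replicate 2, the highest count of any member. Beside Gm12671 the locus chr4:91851490-91851668 had 176 reads in replicate 1 and 0 in replicate 2. The libraries were thus opposite at 2 loci beside pseudogenes of nearly the same sequence. The sequences of the loci themselves were not compared. The models measured 180 and 179 nucleotides, and the Gapdh transcript has 178 bases after its stop codon. The pseudogenes themselves had 1180 and 142 reads (Gm12033) and 1410 and 785 reads (Gm12671), while Gapdh, whose messenger RNA is abundant in muscle, was listed with 40 and 23.

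The other copies of Gapdh had loci of like length. With the 2 above, 10 loci began at the 3′ end of a pseudogene that matched Gapdh, their most-read models measured 179 to 182 nucleotides, 7 of them had reads only in replicate 1 and 3 only in replicate 2, and together they held 201 and 395 reads. At Amd-ps4 the minus-strand locus chr4:51254027-51254363 stopped at the pseudogene's start codon and had 74 and 2 reads. Its 337 nucleotides compare with 333 bases that the Amd2 transcript has before its start codon. Amd-ps4 had no reads, while Amd2 had 1304 and 393. The annotated Amd2 gene is as long as its transcript of 3218 bases, so it has no intron either. Amd1, the gene matched by the copy Amd-ps3, had 1215 and 343 reads, and how reads were placed between Amd1 and Amd2 was not tested.

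Whether a locus took the same part of each library was tested with Fisher's exact test (two-sided), run on 9714 features that had 10 or more reads, namely annotated genes, antisense loci and intergenic loci, with Benjamini-Hochberg adjustment. Calls needed an adjusted p under 0.05 together with a 2-fold difference in CPM. This compares 2 libraries and not conditions, there is no replicate check, and p-values measure only counting error between these samples. Of 91 intergenic loci tested 35 (38.5%) were called, 19 higher and 16 lower in replicate 2. The share over all features was 11.7%, with 9.36% higher and 2.32% lower, and it was 10.7% for annotated genes and 22.3% for antisense loci. The 38.5% includes 15 loci with reads in 1 library only, which reached the minimum of 10 reads through that library and were all called. Of the 76 loci with reads in both libraries 20 (26.3%) were called, 11 higher and 9 lower. The median log2 ratio was -0.04 over the 91 and -0.06 over the 76, beside 0.22 over all features tested. Cell type markers also differed between the libraries: endothelial markers summed to 33.1 and 86.1 CPM in replicates 1 and 2, Schwann cell markers to 23.2 and 53.7, immune markers to 33.8 and 13.6, and blood markers to 179 and 102. Skeletal muscle markers summed to 146393 and 131607 CPM. Of these, Acta1, Ckm and Des were lower in replicate 2. Myh4, Mb, Ttn and the fast myosin gene Myh1 (1112 and 5679 CPM) were higher. The part of these marker differences in the calls was not tested. In such bulk tissue fewer cells of a type and less RNA per cell cannot be told apart.

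**Figure D4:**
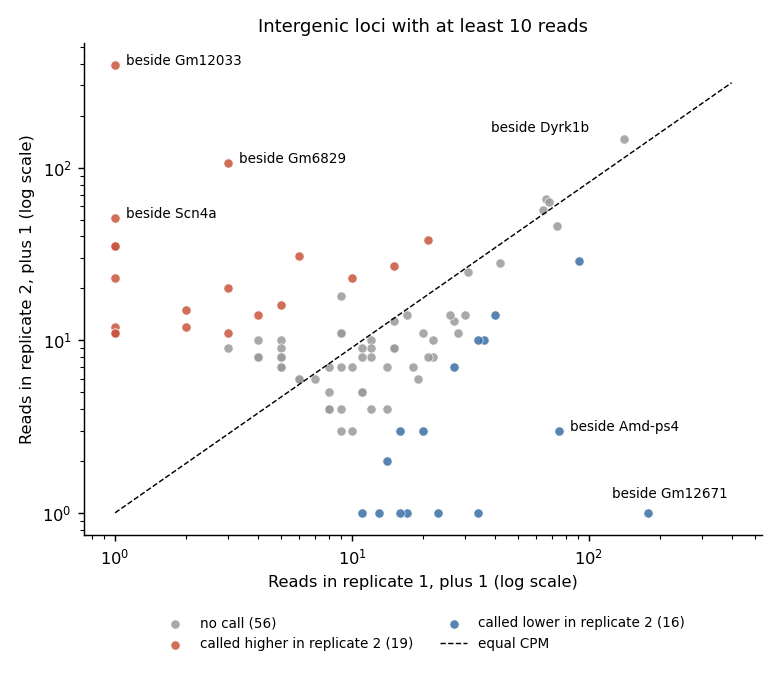
Reads of the 91 intergenic loci with at least 10 reads, replicate 1 on the horizontal and replicate 2 on the vertical axis, both as reads plus 1 on a log scale; the dashed line marks equal CPM, and colours mark the 19 loci called higher in replicate 2 (red), the 16 called lower (blue) and the 56 without a call (grey). Points on the axes' lowest value have 0 reads in that library, as the loci beside Gm12033 and Scn4a have in replicate 1 and the locus beside Gm12671 in replicate 2.

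Among the called loci the highest and the lowest ratio were at Gm12033 and Gm12671. The locus beside Gm12033 was at least 169-fold higher in replicate 2, measured against the floor of 3 reads in replicate 1 (adjusted p = 2.26e-139), and the locus beside Gm12671 at least 45.6-fold lower (adjusted p = 1.48e-42). The locus at Amd-ps4 had a CPM ratio of 0.0348 (exact 95% interval 0.00413 to 0.130). Besides these, chr10:63420608-63421365, which meets the 3′ end of Gm7075, had 22 and 0 reads and was at least 5.70-fold lower.

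At part of the called loci, reads on the same strand and at the same place carried another label. Same-strand models of another class that covered at least 50% of a locus's most-read model were counted for each locus. Such reads were found at 15 of the 35 called loci. When reads under any label were counted, 23 of the 35 kept their call, 11 lost it and 1 turned. The 23 include the 20 called loci without such reads, whose counts could not change in this recount. The plus-strand locus chr10:33478129-33480378 had 0 and 34 reads, while models labelled Trdn, the triadin gene of the calcium release unit, put 65 and 0 reads over the same bases. The 2 labels together gave 65 and 34 reads, which did not differ beyond the threshold (adjusted p = 0.198). At chr3:95029133-95032343, which lies 350 bases past the proteasome gene Psmd4 on the other strand, 0 and 34 intergenic reads stood beside 49 and 0 antisense reads.

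The spliced locus chrX:9328976-9332624 had 2 and 106 reads under the intergenic label, a CPM ratio of 68.2 (exact 95% interval 18.4 to 570), and 209 and 0 reads under the label of the pseudogene Gm6829. Together they were 211 and 106, a log2 ratio of -0.62 in place of 5.30, which is under 2-fold and so no call. At chrX:73670357-73674050, the most-read model had 3 exons and 24 reads in replicate 2. Its 5′ end lay on the first base of the creatine transporter gene Slc6a8, which lies on the other strand. All 5 reads of replicate 1 were unspliced. Here 5 and 30 reads stood beside 36 and 0 under the label of the kinase gene Pnck. The sum of 41 and 30 had no call (adjusted p = 0.984). Past Scn4a, the voltage-gated sodium channel of skeletal muscle, chr11:106317541-106318592 met the 3′ end of the gene with 0 and 50 reads, and 167 and 128 reads over the same place were labelled Scn4a. The sum of 167 and 178, a log2 ratio of 0.45, was under 2-fold and no call.

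A single locus turned. At chr12:103364285-103365535, 33 and 0 intergenic reads stood beside 0 and 53 antisense reads, so it was lower in replicate 2 under its own label and higher with all labels (log2 ratio 1.01, adjusted p = 0.00757). The locus chr6:108918825-108938687 had 16 and 0 intergenic and 0 and 8 antisense reads, and chr2:77310100-77317035, opposite to Gm13943 and with 28 spliced reads that were all in replicate 1, had 35 and 9 intergenic and 0 and 9 antisense reads. Neither kept its call with all labels. Among the 67 tested loci with no reads under another label 20 (29.9%) were called.

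**Figure D5:**
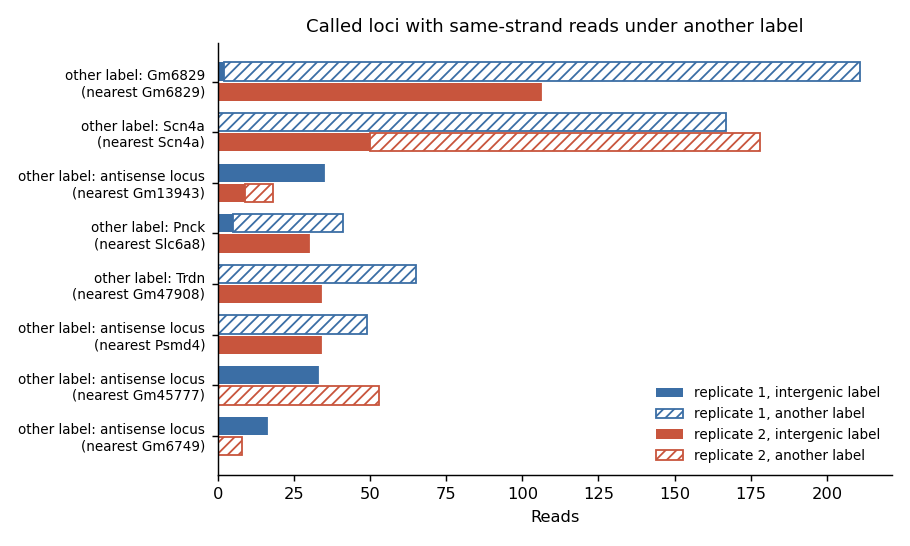
Reads (horizontal axis) at the 8 named called loci that also held same-strand reads under another label, 1 pair of bars per locus, replicate 1 in blue and replicate 2 in red; filled bars carry the intergenic label and hatched bars another label, which is named with the nearest gene at the left. At 6 of the 8 loci 1 library has all or most of its reads under the intergenic label and the other under another label.

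The remaining well-read members had few or no reads under another label. The locus chr4:133096214-133101553, 7067 bases past the lincRNA Gm26615, had 65 and 65 reads, all unspliced except 2 and 1 with the same intron. The locus chr12:24635619-24651274, at the pseudogene Gm6969, had 63 and 56 reads. The 63 reads of replicate 1 formed a model of 133 nucleotides outside the pseudogene, 54 of replicate 2 formed one of 3051 nucleotides that met its end, and only 2 reads of replicate 2 ran across it. No reads of another label covered chr4:133096214-133101553, and 1 and 0 covered chr12:24635619-24651274. The Y-linked locus chrY:67834527-67839254, 5035 bases from the pseudogene Gm29639, was lower in replicate 2 with 90 and 28 reads (log2 ratio -1.29, adjusted p = 0.000133), and chr19:41589572-41592398, 782 bases from Mir8091, was higher with 20 and 37 reads (log2 ratio 1.19, adjusted p = 0.0126). The second call was lost with TMM scaling (adjusted p = 0.0555). Neither had reads under another label.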

How the data were processed

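Counts of reads per transcript model were deposited by the authors in a table for each library that lists only models with reads. They derive from alignments to mm10 with GENCODE M21, per the deposited README files. TALON made the models, per the file headers and source columns of the annotations, which also hold exons and strand (1-based). The sources used here do not state the aligner, versions, filters or strand assignment. SIRV reads, read sequences and a genome sequence were not used here.

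Members and lists were chosen with earlier results of these data known. Gene positions came from the GENCODE M21 release, because the deposited annotations widen genes by reads. Spans on the same strand sharing at least 1 base were merged. CPM used all reads of a table. Features with at least 10 reads were tested by Fisher's exact test, with Benjamini-Hochberg adjustment over all 9714 and a call at adjusted p below 0.05 and 2-fold, and log2 ratios used CPM plus 1. Folds against 0 are lower bounds at 3 reads. ERCC features entered totals only. The test was checked on simulated data.

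Named loci are the 12 most read, the 10 most-read spliced, the 5 with most exons, the 5 highest and 5 lowest called ratios, the 5 most read beyond 50 kb and the 5 most read within 5 kb past a gene on its strand. Gapdh, Amd1, Amd2, Trdn and Pnck were named, and the printed sequences chosen, after values were seen. Pseudogenes were aligned with Biopython 1.88. Other steps used Python 3.11.15, scipy 1.17.1 and pandas 2.3.3, and scaling factors came from edgeR 4.0.16 and DESeq2 1.42.0 in R 4.3.3. Alternatives changed merging, read minimums, depth, scaling, fold, pseudocount, library and gene set.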

Additional observations from a re-analysis of the deposited data

How the results depend on the processing

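The count of 2808 loci was 2818 when exons had to overlap, 2765 when models up to 1 kb apart were joined and 2543 with replicate 1 thinned to the depth of replicate 2, and loci in both libraries and spliced loci also stayed within 1.5 times of their counts there. With models of at least 2 reads, 656 loci were left, 170 of them in both libraries and 73 spliced, and the share of reads was 0.195%. At least 2 reads on spliced models left 117 spliced loci, and, chosen after seeing the data, at least 10 reads left 24 spliced loci and 76 in both libraries. Leaving out a library gave 1507 to 1793 loci, 179 to 207 spliced loci, a share of 0.278% to 0.313% and a median distance of 2666 to 2865 bases. The median distance was 4975 bases to protein-coding genes, 9721.5 bases on the same strand, 1578 bases weighted by reads, 1268 bases at 10 or more reads and 4546 bases without loci sharing a base with a gene (chosen after seeing the data).

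The 35 calls ranged from 26 (thinned) to 44 (at least 5 reads) over the other read minimums, scalings, folds, pseudocounts and mergings, and 20 of the 35 were at loci without reads under another label, an alternative chosen after seeing the data. TMM scaling moved the median log2 ratio over all features from 0.22 to 0.01 and gave 30 calls, 14 of them higher. Of 31 named loci with a test, 16 kept direction and call throughout. Without a call before or after, the sign changed for chr12:24635619-24651274 (-0.026 with TMM and -0.032 with DESeq2), chr2:181141336-181146894 (-0.17 and -0.18) and, thinned, chr1:14664665-14664854 (0.14). The call of chr19:41589572-41592398 was lost with TMM (adjusted p = 0.0555), that of chr4:153604029-153606490 with no read minimum, and 4 named calls at 4-fold. With reads under any label the log2 ratio turned at chrX:9328976-9332624 (-0.62), chr2:180401173-180406616 (0.040), chrX:73670357-73674050 (-0.084), chr12:103364285-103365535 (1.01), chr3:95029133-95032343 (-0.16) and chr10:33478129-33480378 (-0.56). No paired analysis was possible because there is 1 group. Calls could not be tested without a library, since 1 would be left.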
